A study of Sus scrofa with 30 samples.

Results

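A set of 10 genes of the bone morphogenetic protein (BMP) pathway was followed in single pig embryos: the ligands BMP2, BMP4, BMP7 and GDF6, the receptor BMPR1A, and the target genes ID1, ID2, ID3, SMAD6 and SMAD7. The 10 symbols were given as a list, mapped to NCBI gene identifiers, and all 10 were among the 13103 genes of the table of all embryos. RNA-seq was performed on 30 whole embryos, embryonic disc and trophectoderm together, flushed from gilts (German Landrace × Pietrain) on Days 8, 10 and 12 after insemination, with 5 female and 5 male embryos on each day. The cycles of all gilts were synchronized with altrenogest, PMSG and human chorionic gonadotropin and no group had a further treatment, so the comparisons are between days and between sexes. Sperm of 1 Pietrain boar was used for all gilts, 4 gilts were slaughtered on each day, and some of the embryos of a day were littermates, but the labels do not tie an embryo to its gilt. The p-values therefore measure the spread between these embryos, and littermates are counted as separate embryos.

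BMP ligands are secreted as dimers and bind type I and type II receptor kinases at the cell surface. The receptors phosphorylate SMAD1, SMAD5 and SMAD9, which enter the nucleus with SMAD4 and switch on genes such as the ID family, whose proteins block basic helix-loop-helix transcription factors, and SMAD6 and SMAD7, which dampen the signal. In mammalian embryos, BMP signals between the epiblast and the extraembryonic tissues around it are known for their part in the formation of mesoderm, amnion and germ cells.

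On the pig assembly Sscrofa11.1, BMP2 (gene 100157103) lies on chromosome 17 from 15750487 to 15762982, BMP7 (492315) on chromosome 17 from 57567770 to 57676516, and ID1 (100522839) on chromosome 17 from 35316518 to 35317742. BMP4 (100113425) lies on chromosome 1 from 183415989 to 183422888, SMAD6 (100152069) on chromosome 1 from 164652602 to 164735084, and SMAD7 (100521305) on chromosome 1 from 98512800 to 98543924. GDF6 (110260254) lies on chromosome 4 from 40473015 to 40491142, BMPR1A (100169652) on chromosome 14 from 87743270 to 87891790, ID2 (654298) on chromosome 3 from 127500759 to 127503207, and ID3 (100626978) on chromosome 6 from 81422541 to 81424169. Each interval is the whole gene, exons and introns together. The library preparation marked the strand, but whether reads were counted by strand is not given in the sources used here.

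Levels are given as CPM, the counts of a gene per fixed number of counted reads, scaled with TMM factors. They are not divided by transcript length, so a level is compared between embryos and not between genes. A gene was called between days at a false discovery rate (FDR) under 0.001 with a log2 fold change beyond 1 in edgeR's quasi-likelihood test over all 13103 genes, and all adjusted p-values between days below come from that test with Benjamini-Hochberg adjustment. The total counts per embryo lay between 14882265 and 33799980 on Day 8, between 19773328 and 32476637 on Day 10 and between 6068212 and 34002508 on Day 12. The smallest library was that of the Day 12 female d12_f_245, in which 3 counts correspond to 0.434 CPM. Among 6 epiblast markers, NANOG, SOX2, GDF3 and PRDM14 were at 3 counts or fewer in each Day 12 embryo, and the median of the summed level of the 6 markers was 161 CPM on Day 8 (131 to 204), then 130 (107 to 171), then 43.8 (11.7 to 153). The sum of 8 trophectoderm markers had a median of 24562, 44530 and 13995 CPM on the same days (over all embryos 9330 to 52157), and that of 5 hypoblast markers 243, 140 and 319 CPM (120.6 to 547.6). The sum of the 5 of 8 mesoderm markers in the table had a median of 4.91, 73.7 and 1068 CPM (3.43 to 1854). On Day 12 that sum was nearly all HAND1, a gene that trophoblast also expresses. From Day 10 to Day 12 HAND1 was called as higher, TBXT and EOMES were called as lower (log2 fold change -4.89 and -6.01), to 3 counts or fewer in 9 and 10 of the 10 embryos, and TBX6 and HAND2 were not called. The trophectoderm sum was mostly KRT8 and KRT18, both called as lower on Day 12 against Day 10 along with CDX2 and DAB2, while GATA3 (log2 fold change 1.23) and TFAP2A (1.04) were called as higher and GATA2 and TFAP2C were not called. Of the hypoblast markers, GATA4, FOXA2 and HNF4A were called as higher on Day 12 against Day 10, HNF4A from a mean of 33.5 to 163 CPM. SOX17 and GATA6 were not called there. GATA6 was called as lower on Day 10 and on Day 12 against Day 8, with means of 142, 55.5 and 44.5 CPM on Days 8, 10 and 12. In RNA of whole embryos, fewer cells of a type and less RNA per cell cannot be told apart, and the part of these shifts in the results on the 10 genes was not tested.

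Between Days 8 and 10, GDF6 alone of the 10 genes was called, and it was higher on Day 10. The test called 14.1% of all genes in this comparison: 9.88% were higher and 4.2% lower in the later embryos. By number, 70.2% of the called genes were higher with TMM factors and 55.9% with library size alone, which also moved the median log2 fold change of all genes by -0.18, and GDF6 was called under both. Between Days 10 and 12, 7 of the 10 genes were called and all 7 were higher on Day 12, namely BMP4, BMP7, GDF6, ID1, ID2, ID3 and SMAD6, against 23.3% of all genes, of which 14.9% were higher and 8.39% lower. Between Days 8 and 12, 7 of the 10 were again called as higher, against 32.5% of all genes, 22% higher and 10.4% lower. The median log2 fold change of the 10 genes was 0.12 from Day 8 to Day 10 and 1.65 from Day 10 to Day 12, beside 0.03 and 0.04 for all genes. Between Days 8 and 12 it was 2.10, beside 0.09. The 3 comparisons share the embryos of each day and are not independent of each other. The 10 genes were chosen with earlier results of these data known. Their shares beside those of all genes are thus a description and not an independent test. How many of all genes had no overlap between the embryos of the compared days was not counted, so the statements on overlap below stand without that share.

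**Figure D1:**
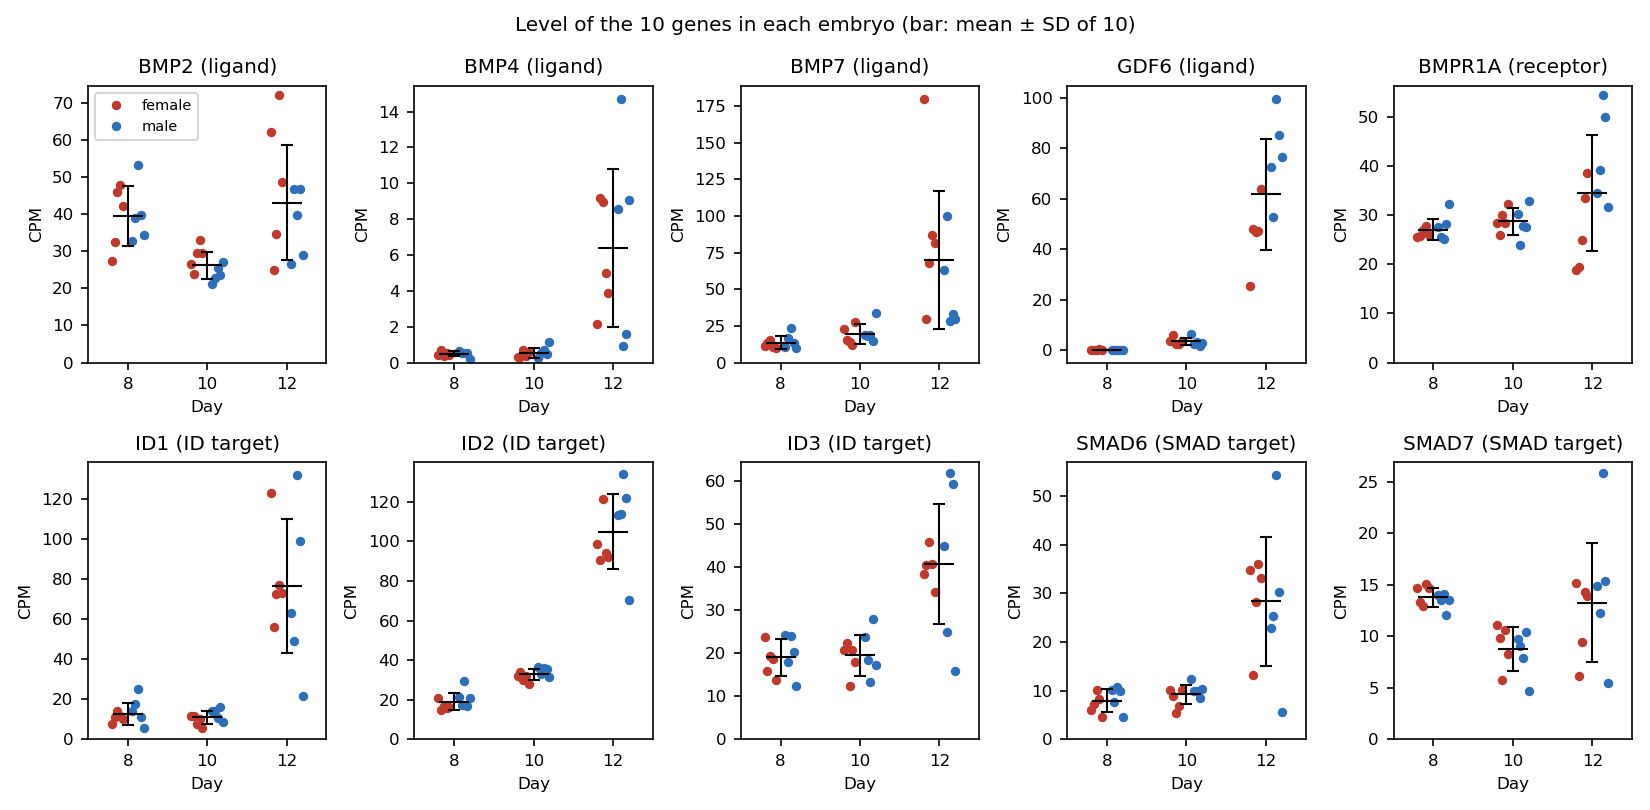
CPM (vertical axis, linear and including 0 in each panel) of each of the 10 genes in each of the 30 embryos against the day (horizontal axis). Red points are female and blue points male embryos, and the black bar and whiskers give the mean ± SD of the 10 embryos of a day. Between Days 10 and 12, GDF6, ID1 and ID2 have no overlap between embryos, and the Day 12 embryos spread more widely than those of Day 10 in all 10 panels.

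Of the 4 ligands, GDF6, a growth and differentiation factor of the BMP family known for its part in joint, skull and eye development, changed most. On Day 8, GDF6 ranged from 0 to 0.264 CPM with a median of 0.0988 CPM, with 2 embryos without a count and 6 embryos at 3 counts or fewer. The 10 Day 8 libraries together held 25 GDF6 counts, a pooled level of 0.108 CPM with a 95% exact Poisson interval from 0.0700 to 0.160 CPM, which covers counting error only. Each Day 10 embryo was above each Day 8 embryo, with 1.78 CPM in the lowest, a median of 2.91 and 6.17 in the highest. On Day 12, GDF6 ranged from 25.3 to 99.7 CPM with a median of 58.4, and again no Day 12 embryo overlapped with Day 10. The log2 fold change was 4.89 ± 0.36 (SE, n = 10 embryos a day, edgeR adjusted p = 1.94e-12) from Day 8 to Day 10 and 4.20 ± 0.26 (adjusted p = 1.04e-14) from Day 10 to Day 12. The first of these values rests on the few Day 8 counts.

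BMP4, a ligand that in the mouse embryo comes from extraembryonic ectoderm and mesoderm and is needed for mesoderm and germ cells, was low in all embryos of Days 8 and 10. Its lowest, median and highest levels were 0.223, 0.517 and 0.727 CPM on Day 8 and 0.245, 0.489 and 1.16 CPM on Day 10, with between 5 and 32 counts in a library. On Day 12 they were 0.943, 6.78 and 14.7 CPM. Of the Day 12 embryos, 9 of 10 were above the highest Day 10 embryo, and the exception was the male d12_m_276. BMP4 had a log2 fold change of 0.15 ± 0.39 (edgeR adjusted p = 0.759) from Day 8 to Day 10 and 3.54 ± 0.39 (adjusted p = 2.53e-09) from Day 10 to Day 12.

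BMP7, a ligand of many epithelia that is needed for kidney and eye development, lay between 9.80 and 23.8 CPM on Day 8 (median 12.3), between 11.9 and 33.9 on Day 10 (median 18.5) and between 28.6 and 180 on Day 12 (median 65.4). Of the Day 12 embryos, 6 of 10 exceeded the highest Day 10 embryo and 10 of 10 the highest Day 8 embryo. For BMP7 the log2 fold change was 0.55 ± 0.28 (edgeR adjusted p = 0.0923) from Day 8 to Day 10 and 1.83 ± 0.28 (adjusted p = 1.5e-06) from Day 10 to Day 12. The highest BMP7 level was in d12_f_245, the smallest library, and without that embryo the gene was still called on Day 12 against both earlier days.

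BMP2, a ligand related to BMP4 that is needed for heart and amnion formation, had its lowest median on Day 10 and was not called in any comparison. It lay between 27.3 and 53.4 CPM on Day 8 (median 39.4), between 21.1 and 33.0 on Day 10 (median 26.0) and between 25.0 and 72.0 on Day 12 (median 43.3). Its log2 fold change was -0.59 ± 0.16 (edgeR adjusted p = 0.00191) from Day 8 to Day 10, 0.71 ± 0.16 (adjusted p = 0.000224) from Day 10 to Day 12 and 0.12 ± 0.15 (adjusted p = 0.475) from Day 8 to Day 12. Of the Day 10 embryos, 7 of 10 were below the lowest Day 8 embryo. Of the Day 12 embryos, 7 of 10 were above the highest Day 10 embryo.

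BMPR1A, the type I receptor kinase that binds BMP2 and BMP4, was not called between days. It lay between 25.2 and 32.2 CPM on Day 8 (median 26.6), between 23.9 and 32.9 on Day 10 (median 28.5) and between 19.0 and 54.6 on Day 12 (median 34.0). Between days its log2 fold change was 0.09 ± 0.13 (edgeR adjusted p = 0.602) from Day 8 to Day 10 and 0.27 ± 0.13 (adjusted p = 0.0876) from Day 10 to Day 12. Day 12 exceeded Day 8 by 0.35 ± 0.13 (adjusted p = 0.0197), under the fold threshold. What set Day 12 apart was the spread, with an SD of 11.8 CPM against 2.09 on Day 8 and 2.75 on Day 10. The Day 12 embryos lay on either side of the earlier days, 6 of 10 above the highest and 2 of 10 below the lowest Day 10 embryo.

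The 3 ID target genes were called as higher on Day 12 against Day 10, and none of them was called between Days 8 and 10. ID1, an inhibitor of differentiation and a direct target of SMAD1 and SMAD5, lay between 5.46 and 24.9 CPM on Day 8 (median 11.3), between 5.35 and 16.02 on Day 10 (median 10.9) and between 21.7 and 132 on Day 12 (median 72.6). Each Day 12 embryo was above each Day 10 embryo, and the log2 fold change was 2.80 ± 0.27 (edgeR adjusted p = 1.55e-10). From Day 8 to Day 10 it was -0.21 ± 0.25 (adjusted p = 0.49).

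ID2, which is known for its part in trophoblast and lymphoid cells, was higher on Day 12 than on both earlier days. It lay between 14.5 and 29.6 CPM on Day 8 (median 17.1), between 27.6 and 36.6 on Day 10 (median 32.6) and between 70.1 and 134 on Day 12 (median 106). From Day 8 to Day 10 the log2 fold change of 0.79 ± 0.11 (edgeR adjusted p = 6.13e-07) stayed under the fold threshold, although 9 of 10 Day 10 embryos were above the highest Day 8 embryo. From Day 10 to Day 12 it was 1.68 ± 0.11 (adjusted p = 5.31e-14) with no overlap.

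ID3, a close relative of ID1, had much the same median on Days 8 and 10, with 18.9 CPM (12.4 to 24.3) and 19.5 CPM (12.3 to 28.0), and a median of 40.7 CPM (15.9 to 61.9) on Day 12. The log2 fold change from Day 10 to Day 12 was 1.06 ± 0.18 (edgeR adjusted p = 9.24e-06), just over the fold threshold. Without d12_m_276 it was 0.98 and without d12_m_286 it was 0.99, and the call was lost in both cases because the change was then under the fold threshold. On Day 12, 8 of 10 embryos were above the highest Day 10 embryo.

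The 2 inhibitory SMAD genes differed from each other. SMAD6, which blocks the BMP branch of the pathway, lay between 4.64 and 10.7 CPM on Day 8 (median 7.98), between 5.30 and 12.3 on Day 10 (median 9.95) and between 5.49 and 54.5 on Day 12 (median 29.3). Its log2 fold change was 0.21 ± 0.24 (edgeR adjusted p = 0.467) and then 1.62 ± 0.25 (adjusted p = 1.38e-06), and 9 of 10 Day 12 embryos exceeded the highest Day 10 embryo.

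SMAD7, which blocks BMP, activin and TGF beta receptors alike, lay between 12.1 and 15.1 CPM on Day 8 (median 13.7), between 4.62 and 11.08 on Day 10 (median 9.39) and between 5.49 and 25.8 on Day 12 (median 14.1). Each Day 10 embryo was below each Day 8 embryo, but the log2 fold change of -0.66 ± 0.19 (edgeR adjusted p = 0.00408) met neither threshold. From Day 10 to Day 12 it was 0.61 ± 0.19 (adjusted p = 0.00715) and from Day 8 to Day 12 it was -0.05 ± 0.19 (adjusted p = 0.804). SMAD7 thus had its lowest median on Day 10, as did BMP2.

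**Figure D2:**
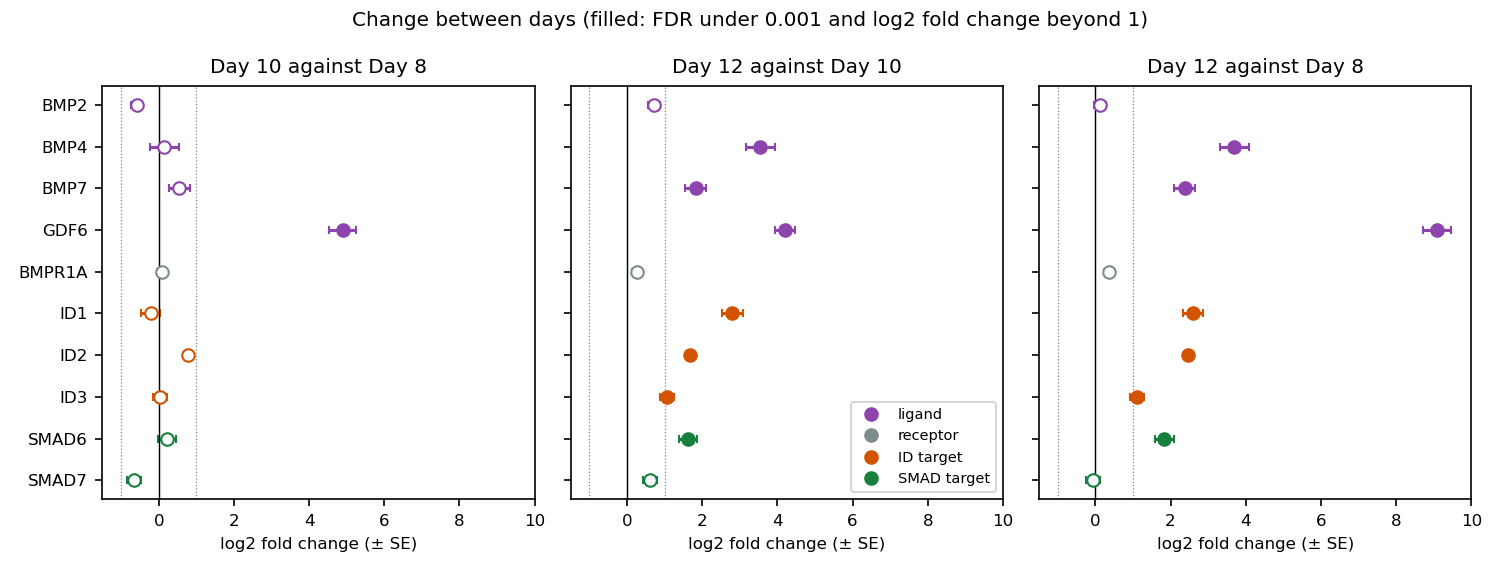
Log2 fold change ± SE (horizontal axis) of each gene (vertical axis) in the 3 comparisons between days, from edgeR's quasi-likelihood fit of 30 embryos. Colours give the role, filled circles are called genes and dotted lines mark a log2 fold change of 1 in either direction. Only GDF6 is filled in the comparison of Days 8 and 10, and 7 genes are filled in each of the other comparisons.

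From Day 8 to Day 12, over both intervals, GDF6 differed most, by a log2 fold change of 9.09 ± 0.37 (edgeR adjusted p = 2.25e-19). The size of this change also rests on the few Day 8 counts of GDF6. BMP4 differed by 3.69 ± 0.39 (edgeR adjusted p = 8.32e-10) and BMP7 by 2.37 ± 0.29 (adjusted p = 1.22e-08), and in these 3 ligands no Day 12 embryo overlapped with Day 8. Among the target genes, ID1 differed by 2.59 ± 0.26 (edgeR adjusted p = 4.12e-10), ID2 by 2.47 ± 0.12 (adjusted p = 8.68e-18), ID3 by 1.10 ± 0.18 (adjusted p = 3.65e-06) and SMAD6 by 1.83 ± 0.25 (adjusted p = 1.14e-07). ID2 had no overlap, and for ID1, ID3 and SMAD6 9 of 10 Day 12 embryos exceeded the highest Day 8 embryo. The share of all genes without overlap between these days was not counted. In a fit of the males alone, ID3 (1.07) and SMAD6 (1.69) were not called in this comparison.

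Set side by side, 3 of the 4 ligands and 4 of the 5 target genes were called as higher on Day 12 against Day 10, beside 14.9% of all genes. The median log2 fold change was 2.69 over the ligands and 1.62 over the target genes. From Day 8 to Day 10, 1 of the 4 ligands and 0 of the 5 target genes were called by the quasi-likelihood test, beside 14.1% of all genes, with medians of 0.35 and 0.03. The robust GLM of edgeR and DESeq2 also called 0 target genes. At an FDR under 0.05 with no fold threshold the quasi-likelihood test called 2 of the 5, ID2 as higher and SMAD7 as lower. At that threshold it called 7353 of all 13103 genes. As the 10 genes were chosen with earlier results of these data known, these shares only describe them.

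The levels of the target genes on Day 12 were uneven between embryos. The male d12_m_276 had the highest level of all 5 target genes among the 10 Day 12 embryos, with ID1 at 132, ID2 at 134, ID3 at 61.9, SMAD6 at 54.5 and SMAD7 at 25.8 CPM. In the same embryo GDF6 (99.7 CPM) and BMPR1A (54.6 CPM) were highest too, while BMP4 (0.943 CPM) and BMP7 (28.6 CPM) were the lowest of that day. Of the wider pathway list below, SMAD1, SMAD5, SMAD9, ACVR1, BMPR2, SMURF1, SMURF2, BAMBI and TCF12 were also highest in d12_m_276. BMPR1B, CHRD and BMP1 were lowest in it. The male d12_m_307 had the lowest level of all 5 target genes, with 21.7, 70.1, 15.9, 5.49 and 5.49 CPM in the same order, at 9.09 CPM of BMP4 and 76.6 CPM of GDF6.

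These 2 embryos also stood apart in single marker genes. HAND1 was 1852 CPM in d12_m_276, the highest of Day 12, and 584 CPM in d12_m_307, the lowest, but the mean log2 CPM of the 5 mesoderm markers was lowest in d12_m_276 (0.49) and 0.69 in d12_m_307. The sum of the 6 epiblast markers was 17.4 CPM in the former and 153 CPM in the latter, the highest of Day 12, and 151.6 CPM of the latter was LIN28A. HBB and ESR1, the 2 of 5 markers of maternal blood or endometrium in the table, summed to 0.492 CPM in the former and 10.7 CPM in the latter, the lowest and the highest of Day 12. The part of these markers in the levels of the target genes was not tested. With both embryos left out, 7 of the 10 genes were still called between Days 10 and 12.

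**Figure D3:**
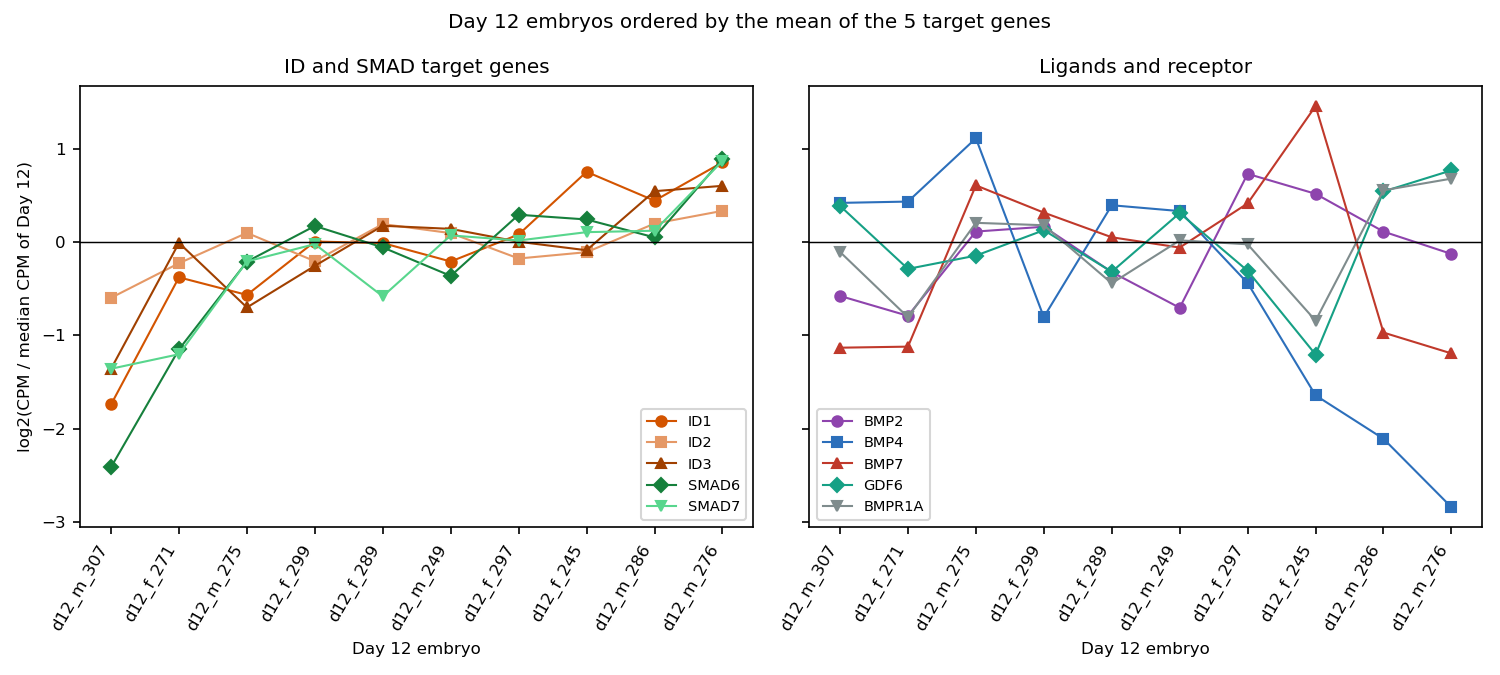
Level of each gene in the 10 Day 12 embryos, as log2 of the CPM over the median CPM of Day 12 (vertical axis), with the embryos ordered by the mean of the 5 target genes (horizontal axis). Left, the 5 target genes; right, the 4 ligands and BMPR1A. All 5 target genes are lowest in d12_m_307 and highest in d12_m_276, where BMP4 is lowest.

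Whether ligand and target levels moved together within a day was tested over the 10 embryos of each day, for 20 pairs of a ligand and a target gene and 10 pairs of target genes, on log2 CPM. Of these 90 relations, 5 had a Benjamini-Hochberg adjusted p under 0.05 by Pearson's r and 6 by Spearman's rho (two-sided permutation test, 100000 resamples). On Day 12 all 10 pairs of target genes were positive, with r from 0.659 to 0.912 and a median of 0.768. The closest pair was ID1 and SMAD6, with r = 0.912 (permutation p = 0.00059, adjusted 0.0177) and rho = 0.903 (p = 0.00097, adjusted 0.0291). Without d12_m_276 and d12_m_307, the 2 embryos farthest from the median of ID1, r was 0.622 (exact permutation p = 0.103). Leaving them out also narrows the range of ID1 and leaves fewer embryos, so it cannot decide whether the relation rests on them.

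For SMAD6 and SMAD7 on Day 12, r was 0.899 (permutation p = 0.00047, adjusted 0.0177) and rho 0.745 (p = 0.0169, adjusted 0.0953), and r was 0.749 without the 2 farthest embryos (exact permutation p = 0.0544). For ID1 and ID3, r was 0.862 (permutation p = 0.00217, adjusted 0.0391), rho 0.648 (p = 0.0507, adjusted 0.198), and r 0.508 without the 2 farthest (exact permutation p = 0.191). In both relations r was thus lower without the farthest embryos, a cut that also narrows the range. On Day 10 the 10 pairs of target genes were also all positive, with r from 0.196 to 0.868, and ID1 with ID2 was the closest. For that pair r was 0.868 (permutation p = 0.0012, adjusted 0.027), rho 0.77 (p = 0.0126, adjusted 0.0834), and r 0.714 without the 2 farthest embryos (exact permutation p = 0.0452). On Day 8, 8 of the 10 pairs were positive and none had an adjusted p under 0.05.

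Between ligands and target genes, no relation with an adjusted p under 0.05 by Pearson's r was positive. On Day 10, 15 of the 20 relations were negative, and BMP4 with SMAD7 had r = -0.878 (permutation p = 0.00044, adjusted 0.0177) and rho = -0.806 (p = 0.00713, adjusted 0.0654). Without the 2 farthest embryos r was -0.85 (exact permutation p = 0.00191). With library size in place of TMM factors, the relation of BMP4 and SMAD7 no longer had an adjusted p under 0.05. BMP4 was counted between 5 and 32 times in a Day 10 library, so its own level there carries a large counting error. By rho alone, BMP4 with ID3 (rho = -0.842, permutation p = 0.00329, adjusted 0.0493) and BMP7 with SMAD6 (rho = 0.903, p = 0.00081, adjusted 0.0291) passed on Day 10.

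On Day 12, BMP4 was negative with all 5 target genes, with r from -0.761 for ID1 to -0.392 for ID2. For BMP4 and ID1, r was -0.761 (permutation p = 0.00766, adjusted 0.0862) and rho -0.927 (p = 0.00033, adjusted 0.0291), and r was -0.665 without d12_m_276 and d12_m_286 (exact permutation p = 0.0762). For ID1 and SMAD7, rho was 0.867 (permutation p = 0.00233, adjusted 0.0419) and r 0.817 (p = 0.00405, adjusted 0.0607), or 0.524 without d12_m_276 and d12_m_307. For BMP4 and SMAD7, rho was -0.867 (permutation p = 0.00226, adjusted 0.0419) and r -0.71 (p = 0.0209, adjusted 0.117), or -0.489 without d12_m_276 and d12_m_286 (exact permutation p = 0.216). GDF6 and BMP7 had r between -0.155 and 0.387 with the 5 target genes of that day. BMP2 was positive with all 5, with r from 0.104 (ID2) to 0.611 (SMAD6, permutation p = 0.0531, adjusted 0.187, rho 0.733, adjusted 0.102). BMP4 and ID1 were thus both called as higher on Day 12 against Day 10, while within Day 12 the embryos with most BMP4 were not those with most ID1.

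BMP7 followed the hypoblast markers. In a further set of 120 relations, chosen after the data were seen, each of the 10 genes was set against the mean log2 CPM of the epiblast, hypoblast, mesoderm and trophectoderm lists within a day, and 3 had an adjusted p under 0.05 by Pearson's r. BMP7 with the 5 hypoblast markers (GATA4, GATA6, SOX17, FOXA2 and HNF4A) had r = 0.95 on Day 12 (permutation p = 2e-05, adjusted 0.0024) and rho = 0.952 (p = 8e-05, adjusted 0.0096). Without d12_f_245 and d12_f_271, r was 0.948 (exact permutation p = 0.000446).

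On Day 8, BMP7 and the hypoblast markers had r = 0.913 (permutation p = 7e-05, adjusted 0.0042) and rho = 0.927 (p = 0.00034, adjusted 0.0204), and r was 0.877 without the 2 farthest embryos (exact permutation p = 0.00573). On Day 10, r was 0.793 (permutation p = 0.00682, adjusted 0.205) and rho 0.83 (p = 0.00506, adjusted 0.181), with r = 0.651 without 2 embryos (exact permutation p = 0.0839). The third relation was ID1 with the hypoblast markers on Day 8, with r = 0.857 (permutation p = 0.00079, adjusted 0.0316), rho = 0.806 (p = 0.00753, adjusted 0.181) and r = 0.663 without d08_m_121 and d08_m_136 (exact permutation p = 0.0699). On Day 12 the other ligands had r = 0.649 (BMP2, permutation p = 0.0471, adjusted 0.404, rho 0.758, adjusted 0.219), 0.16 (BMP4) and -0.578 (GDF6) with the hypoblast markers. For BMP2, r was 0.441 without 2 embryos and 0.644 on Day 8 (permutation p = 0.0378, adjusted 0.355). No difference between ligands was tested. Whether these relations follow from litters shared by embryos was not tested, as the gilts are unknown.

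**Figure D4:**
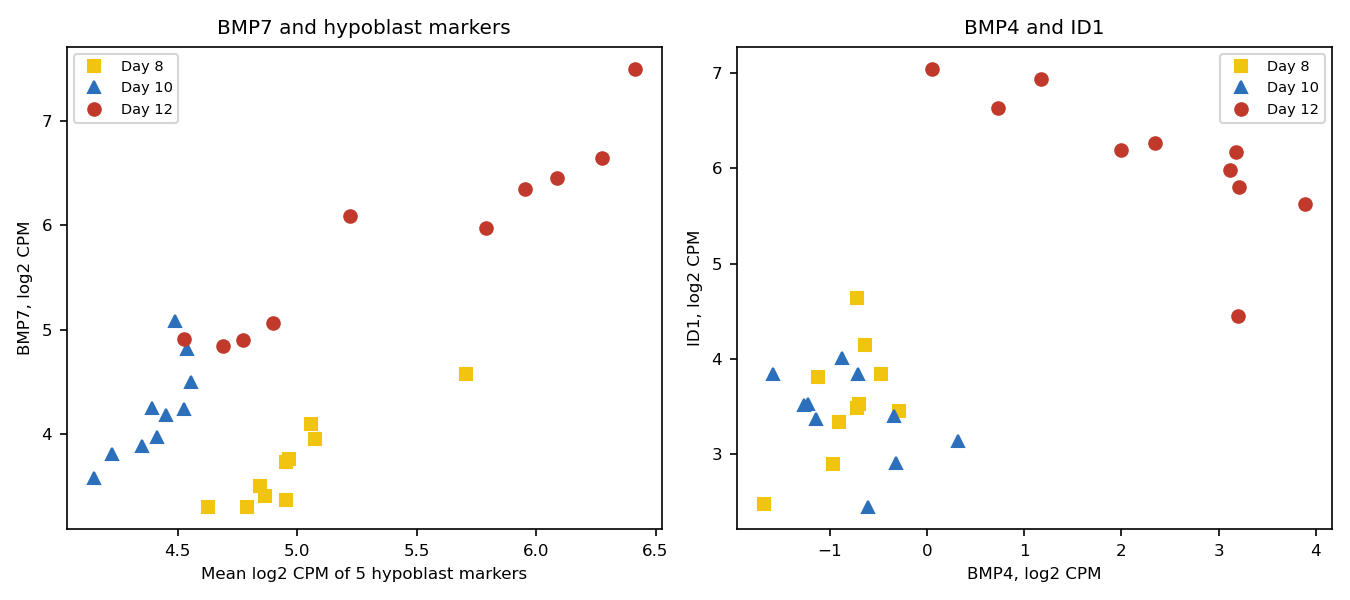
Left, log2 CPM of BMP7 (vertical axis) against the mean log2 CPM of 5 hypoblast markers (horizontal axis); right, log2 CPM of ID1 (vertical) against BMP4 (horizontal). Each point is an embryo, and shape and colour give the day. Within Days 8 and 12 the BMP7 points climb with the markers (r = 0.913 and 0.95), and within Day 12 the ID1 points descend with BMP4 (r = -0.761).

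Over all 30 embryos, the genes whose log2 CPM ran most like each of the 10 were named as a description, by Pearson's r over embryos that share their day. BMP7 was most like PTH1R (r = 0.975) and APOA1 (0.965), GDF6 most like CTBS (0.983) and IFNG (0.980), and BMP4 most like ADRA1B (0.931) and C3 (0.924). ID2 was most like B4GALT1 (0.970) and SLC26A9 (0.970), ID1 most like LOC110260022 (0.942) and ZFPM1 (0.941), and SMAD6 most like FGL2 (0.914) and UROC1 (0.902). The nearest genes to ID3 were ID1 (0.883) and SMAD6 (0.866), so among all 13103 genes its closest matches were 2 of the other target genes. BMPR1A was nearest to TRAM1 (0.918) and CLINT1 (0.908). The nearest to BMP2 were STEAP3 (0.797) and FKBP9 (0.790), and to SMAD7 they were SSR1 (0.830) and SARAF (0.823).

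A wider list of 65 pathway genes, drawn up by role, had 42 in the table, 32 of them other than the 10 genes. Of these 32, 5 were called as higher and 3 as lower on Day 10 against Day 8, and 14 as higher and 0 as lower on Day 12 against Day 10. On Day 12 against Day 8, 12 were higher and 1 was lower. Over all genes, the share called as higher and lower was 9.88% and 4.2%, then 14.9% and 8.39%, then 22% and 10.4% in the same comparisons. From Day 8 to Day 12 the largest log2 fold changes were 5.21 for HEY1, 4.98 for BMPR1B, 4.13 for SMAD1, 3.22 for CHRD and 2.71 for SMAD9 (edgeR adjusted p from 1.53e-17 to 2.74e-08). HEY1 and BMPR1B had Day 8 means of 0.201 and 0.129 CPM, with 3 and 6 of the embryos at 3 counts or fewer. Their fold changes thus rest on few Day 8 counts. The median log2 fold change of the 32 genes was -0.06, 0.88 and 0.80 in the 3 comparisons, beside 0.03, 0.04 and 0.09 for all genes. The wider list was also chosen with earlier results of these data known, so its shares are a description.

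Transcripts of SMAD1, SMAD5 and SMAD9, but not of SMAD4, were called as higher on Day 12 against Day 10. SMAD1, which the receptors phosphorylate, went from a mean of 5.15 CPM on Day 8 and 6.19 on Day 10 to 90.0 on Day 12, a log2 fold change of 3.86 ± 0.20 (edgeR adjusted p = 7.56e-17) from Day 10 to Day 12. SMAD9, its relative, went from a mean of 0.313 CPM on Day 10 to 5.02 on Day 12 (log2 fold change 3.98, adjusted p = 8.82e-11), and SMAD5 was called as higher too. SMAD4, the shared partner, had a mean of 79.0 CPM on Day 10 and 58.2 on Day 12 and was not called (log2 fold change -0.44, adjusted p = 0.000261). ENG, a co-receptor of endothelial cells, rose from a mean of 1.47 to 9.07 CPM (log2 fold change 2.60, adjusted p = 1.71e-08).

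Of the 3 type I receptor genes in the table, BMPR1B, which binds GDF5 and its relatives, was called as higher on Day 10 against Day 8, from a mean of 0.129 to 1.88 CPM (log2 fold change 3.82 ± 0.46, edgeR adjusted p = 4.77e-08), with 6 of the Day 8 embryos at 3 counts or fewer. BMPR1B and GDF6 were the receptor and the ligand called in that interval. None of the 3 type II receptor genes and neither of the 2 E protein genes (the partners that ID proteins bind) was called between days. Some of them met the FDR but not the fold threshold. TCF3 had a log2 fold change of 0.76 (edgeR adjusted p = 3.51e-05) from Day 8 to Day 10. From Day 10 to Day 12, ACVR2A had 0.97 (adjusted p = 0.00021) and TCF12 0.73 (adjusted p = 3.04e-05). From Day 8 to Day 12, TCF12 had 0.85 (adjusted p = 2.12e-06).

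Genes for antagonists, which bind ligands or receptors and hold the signal back, went both ways between Days 8 and 10. CHRD rose by 1.39 and FSTL3 by 1.07 on the log2 scale, and BAMBI fell by 2.53 and FSTL1 by 1.40 (edgeR adjusted p from 3.09e-07 to 0.000284). Between Days 10 and 12, 5 of 9 antagonist genes were called as higher and 0 as lower by the same test, beside 14.9% and 8.39% of all genes. BAMBI, a decoy receptor, went back from a mean of 3.26 CPM on Day 10 to 21.3 on Day 12 (log2 fold change 2.71, adjusted p = 5.37e-08), close to its Day 8 mean of 18.9. FSTL1 was lower on Day 12 than on Day 8 by a log2 fold change of -1.06 (adjusted p = 0.000112), a call lost without d08_f_130, d12_f_271 or d12_m_249.

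Other genes known as BMP targets varied in their timing. HEY1 was called as higher in both intervals (log2 fold change 3.15 and 2.06, edgeR adjusted p = 4.42e-07 and 1.7e-05). The first of these values rests on between 2 and 11 HEY1 counts in a Day 8 library. DLX5 fell by 1.61 on the log2 scale from Day 8 to Day 10 (adjusted p = 3.43e-08) and was called as higher again on Day 12. ID4, the remaining ID gene, was called as higher on Day 10 against Day 8 (log2 fold change 1.55, adjusted p = 0.000695), but lost that call in 11 of 30 fits that each left out 1 embryo. FSTL3 lost its call of that interval without d10_f_454.

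**Figure D5:**
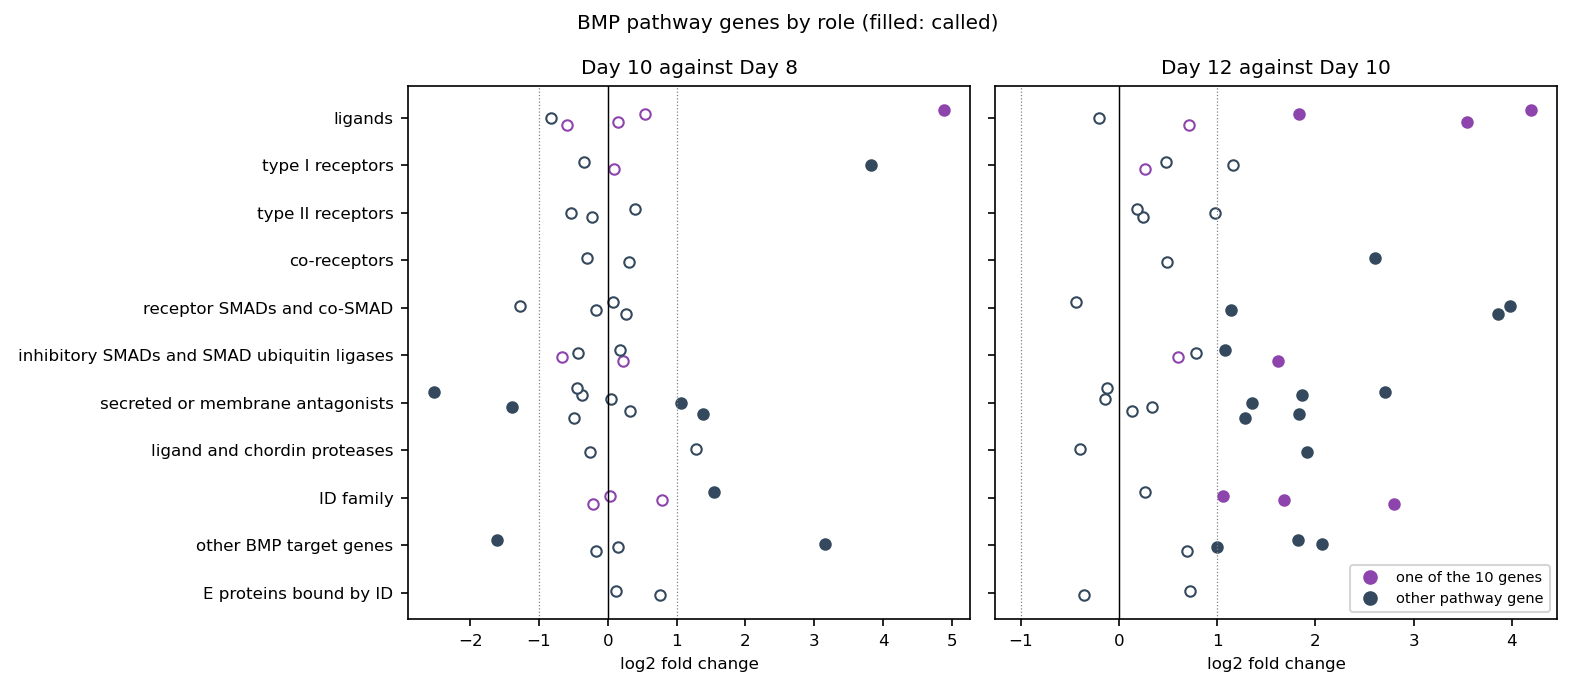
Log2 fold change (horizontal axis) of 42 BMP pathway genes grouped by role (vertical axis), on Day 10 against Day 8 (left) and Day 12 against Day 10 (right). Purple circles are the 10 genes, dark circles the other pathway genes, filled circles are called, and the small vertical offsets only separate points. On the right, 21 genes are filled and all of them lie to the right of 0.

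Between the sexes, 0 of the 10 genes were called on any day at an FDR under 0.05 by edgeR's quasi-likelihood test in the table of the day, which called 0.658% of all genes on Day 8, 0.223% on Day 10 and 0.123% on Day 12. BMP4 was absent from the tables of Days 8 and 10 and GDF6 from that of Day 8, so the tables of Days 8, 10 and 12 held 8, 9 and 10 of the genes. At an unadjusted p under 0.05, 0 of the 10 genes passed on Day 8 and 0 on Day 10, beside 4.59% and 2.36% of all genes, and 2 passed on Day 12, beside 22.7% of all genes. The robust GLM of edgeR and DESeq2 also called 0 of the 10 genes on each day.

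The 2 genes on Day 12 were GDF6 and BMPR1A, both with the lower mean in females. The lowest Day 12 level of both genes was in the same female, d12_f_245, the smallest library. GDF6 lay between 25.3 and 63.9 CPM in the females (median 47.2) and between 52.9 and 99.7 in the males (median 76.6), and the sexes overlapped. Scaled within the Day 12 table, its mean was 48.9 ± 13.9 CPM for females against 80.2 ± 16.8 for males (SD, n = 5 each). The log2 fold change, female over male, was -0.71 ± 0.22 by edgeR (adjusted p = 0.198). BMPR1A lay between 19.0 and 38.6 CPM in the females (median 25.0) and between 31.6 and 54.6 in the males (median 39.3). Its mean in the Day 12 table was 28.7 ± 8.64 CPM for females against 43.5 ± 9.74 for males (SD, n = 5 each). The log2 fold change was -0.60 ± 0.22 by edgeR (adjusted p = 0.198). In a fit of all 30 embryos in 6 groups BMPR1A was called, but the share of all genes called between the sexes in that fit was not counted. Litters span both sexes of a day, and without the gilts of the embryos the sexes could not be compared within litters. The change of BMPR1A from Day 10 to Day 12 differed between the sexes by -0.66 on the log2 scale, female minus male (edgeR adjusted p = 0.192), and no such difference passed an adjusted p of 0.05 for any of the 10 genes.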

How the data were processed

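The libraries were poly(A) RNA libraries read from 1 end. According to the methods of the study, reads were trimmed with Trim Galore and aligned to Sscrofa11.1 with NCBI's annotation, and low genes were filtered by CPM. Which aligner, counter and filter value were used is not given in the sources used here. The submitters' processing notes name edgeR. The deposited tables give raw, whole read counts per NCBI gene, not normalized by the authors: 13103 genes over the 30 embryos, and 11405, 11675 and 12220 genes in the tables of Days 8, 10 and 12. Each of the 13103 genes reached 0.5 CPM in at least 4 embryos. Totals lay between 6068212 and 34002508 counts per embryo, and intervals cover counting error only.

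Days were compared in a single fit of 3 groups by the robust quasi-likelihood F test of edgeR 4.0.16 under R 4.3.3, with TMM factors, and the sexes likewise in each day's own table. SEs are the absolute log2 fold change divided by the root of F, and log2 CPM has a prior count of 2. The tests were tried on simulated data first. Permutation tests were written with numpy 2.4.6, with ranks from scipy 1.17.1, and plots came from matplotlib 3.10.9, under Python 3.11.15.

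The 10 genes, the pathway genes and the cell type markers were chosen with earlier results of these data known. Values are given for all 10 genes, for up to 5 rises and 5 falls of largest size among the called other pathway genes of each comparison, and for the 2 genes with the highest r to each of the 10. SMAD4, SMAD5, ACVR1, ACVR2A, BMPR2, BMP1, SMURF1, SMURF2, TCF3, TCF12 and the markers are named outside this rule, after their values were seen.

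Alternative settings were edgeR's robust GLM, DESeq2 1.42.0, RLE factors or library size in place of TMM, other filters on low genes, a sex term, fits restricted to the compared days, to females or to males, testing beyond a log2 fold change of 1, dropping the fold threshold at an FDR of 0.05, Day 10 embryos whose number starts with 3 or with 4 (a series whose meaning the labels do not state), a prior count of 0.5 for the relations, and omission of each embryo. The relations to markers, the differences between sexes in the change between days, and the fit without d12_m_276 and d12_m_307 were added after the data had been seen. Promoter motifs and sequences were not analysed here.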

Additional observations from a re-analysis of the deposited data

Results flagged for a closer look

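Each of the 10 genes was checked in 9 groups of embryos (10 embryos of a day, or 5 of a day and sex) for an embryo far from the others by Dixon's test, 90 groups in all, of which chance flags about 1 in 20. There were 9 such values. On Day 8, the male d08_m_121 was highest for BMP7 (23.8 CPM, the others up to 17.1) and ID2 (29.6 CPM, the others up to 21.3), and the male d08_m_136 was highest for BMPR1A (32.2 CPM, the others up to 28.2) and lowest of the males for BMP4 (0.223 CPM, the others from 0.516). On Day 10, the male d10_m_453 was highest for BMP4 (1.16 CPM, the others up to 0.712) and highest of the males for BMP7 (33.9 CPM, the others up to 18.9). On Day 12, the female d12_f_245 was highest for BMP7 (180 CPM, the others up to 99.9), the female d12_f_289 highest of the females for ID2 (121.5 CPM, the others up to 98.5), and the male d12_m_276 highest for SMAD7 (25.8 CPM, the others up to 15.4).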

How the results depend on the processing

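Of 450 log2 fold changes of the 10 genes under other settings, 423 kept their direction and their side of the thresholds, 11 were no longer called, 6 became called and 10 changed sign, none of them a called change. Library size alone moved the median of all genes by -0.18 from Day 8 to Day 10 and by 0.20 from Day 10 to Day 12, and the share of called genes that were higher from 70.2% to 55.9% and from 64.0% to 72.9%. Changes of sign from Day 8 to Day 10 were BMP4 (-0.0456 with library size alone, -0.0929 in females, -0.0186 with the Day 10 embryos whose number starts with 3), BMPR1A (-0.097 with library size alone) and ID3 (-0.14 with library size alone, -0.0376 with the same Day 10 embryos). BMPR1A was -0.18 in females from Day 10 to Day 12, and from Day 8 to Day 12 BMP2 was -0.0751 and SMAD7 0.13 in males and BMPR1A -0.046 in females. Of the 10 genes, 4 were called from Day 8 to Day 10 at an FDR under 0.05 with no fold threshold (BMP2, GDF6, ID2 and SMAD7). From Day 10 to Day 12, 4 (BMP4, GDF6, ID1 and ID2) were called in males alone, where BMP7 was 1.28, ID3 1.04 and SMAD6 1.44, against 7 in females alone, and 4 (the same genes) against a log2 fold change of 1. BMP7 and ID3 also lost that call with the Day 10 embryos whose number starts with 4, and from Day 8 to Day 12 ID3 lost its call in males alone and against a log2 fold change of 1 and SMAD6 in males alone. The cause of these losses was not tested. All genes called from Day 8 to Day 10 numbered 977 in females, 1067 in males, 675 against a log2 fold change of 1 and 7353 at an FDR of 0.05. From Day 10 to Day 12 they numbered 2003 in males, 1574 and 7821 by the same 2 thresholds, and from Day 8 to Day 12 2403 and 9606. With 1 embryo left out, the calls among the 10 genes stayed at 1, between 6 and 7, and at 7 in the 3 comparisons, and those among all genes ran from 1669 to 1939, 2963 to 3083 and 4147 to 4348. From Day 8 to Day 10, BMP4 then ran from -0.0508 to 0.23 and ID3 from -0.0364 to 0.0923, and from Day 8 to Day 12 SMAD7 ran from -0.22 to 0.0374. Between sexes on Day 12, 2 of the 10 genes passed at an unadjusted p under 0.05, beside 22.7% of all genes. In the fit of 6 groups 1 was called, and the share of all genes there was not counted. Of the 90 relations, 3 passed with library size alone, ID1 with ID2 on Day 10 and SMAD6 with ID1 and with SMAD7 on Day 12. BMP4 with SMAD7 on Day 10 and ID1 with ID3 on Day 12 were lost there, so no pair of a ligand and a target gene passed. With the 2 farthest embryos left out of each relation, which leaves 8 embryos, 0 passed. No paired analysis was possible because the labels give neither the gilt of an embryo nor a number shared between groups, although litters span both sexes. Depth limits GDF6 and BMP4 on Day 8, with 5 counts or fewer and 23 counts or fewer in a library.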
